A study of Homo sapiens with 6 samples.

Results

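The short arm of chromosome 7 carries genes of many unrelated roles, and 187 of them were expressed in these lung adenocarcinoma cells and are described here in order of their position. They were taken from 20356 genes in the table of the whole series, of which 303 lie on chromosome 7 and end before 58 Mb in the human build GRCh37. A gene was kept when its mean reached 1 FPKM, a fragment count scaled to gene length and sequencing depth, in at least 1 of the groups of libraries. That level was reached by 189 of the 303, and EGFR and HOXA10 were left out because EGFR and the HOXA cluster are treated as separate gene families. Of the other arm genes, 104 stayed below the limit, and 33 of these were listed at 0 in every library. The level in these same libraries chose the members, and the arm was picked out with lower expression of chromosome 7 already seen in them. Counts and medians over the members are therefore descriptions, and those over the whole arm are set beside the same values over all 12107 genes tested.

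H1975 is a human lung adenocarcinoma line that carries mutant EGFR, and osimertinib is an inhibitor of the mutant receptor. The parental group held 3 libraries of H1975 cells grown under normal conditions. The resistant group held 3 libraries of H1975 OR, an osimertinib-resistant derivative kept in 1 µM osimertinib, and both groups shared the same serum-supplemented medium. The resistant cells are a single derivative line and were sampled in the drug, so resistance, selection of the line and presence of the drug cannot be told apart. The libraries are named as biological replicates, but nothing more is said of separate cultures, so p-values measure the spread between these libraries.

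A chromosome arm is not a pathway. Genes on it share a DNA molecule and, locally, their chromatin, and some neighbours share a promoter region from which they are read in opposite directions. The short arm of chromosome 7 is known for EGFR near the centromere and for the HOXA cluster of body-plan genes in its middle, and it also carries ACTB, the gene of cytoplasmic beta-actin. Neither DNA copy number nor chromatin was measured in these libraries.

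The sequences of 5 promoter windows are shown first. Their genes carry some of the largest changes on the arm or form the pair of highly expressed neighbours described further on. The windows were read from RefSeq on GRCh38.p14. They run 5′ to 3′ on the gene's own strand, from 250 bases before to 50 bases after the listed start. Letters in capitals mark every match, on either strand, to 5 short motifs: the CCAAT box (CCAAT), the GC box (GGGCGG), the TATA box (TATAAA), the degenerate consensus of the kappa B site and the M-box (TCACATGA). The windows are IL6 at chr7:22726950-22727249 on the plus strand, TSPAN13 at chr7:16753505-16753804 on the plus strand, GPNMB at chr7:23246525-23246824 on the plus strand, HNRNPA2B1 at chr7:26200697-26200996 on the minus strand, and CBX3 at chr7:26201193-26201492 on the plus strand.
IL6: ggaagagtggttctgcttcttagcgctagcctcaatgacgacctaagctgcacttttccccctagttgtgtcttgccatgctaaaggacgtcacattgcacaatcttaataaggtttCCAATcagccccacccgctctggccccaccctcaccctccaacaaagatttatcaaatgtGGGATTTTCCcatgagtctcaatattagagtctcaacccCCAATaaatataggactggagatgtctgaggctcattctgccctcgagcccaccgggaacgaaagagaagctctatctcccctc
TSPAN13: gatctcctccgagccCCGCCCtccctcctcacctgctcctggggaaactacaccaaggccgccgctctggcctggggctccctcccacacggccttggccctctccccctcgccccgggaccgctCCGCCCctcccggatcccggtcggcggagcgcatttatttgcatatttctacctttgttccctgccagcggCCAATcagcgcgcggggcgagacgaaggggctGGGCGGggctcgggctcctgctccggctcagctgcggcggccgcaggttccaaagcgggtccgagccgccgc
GPNMB: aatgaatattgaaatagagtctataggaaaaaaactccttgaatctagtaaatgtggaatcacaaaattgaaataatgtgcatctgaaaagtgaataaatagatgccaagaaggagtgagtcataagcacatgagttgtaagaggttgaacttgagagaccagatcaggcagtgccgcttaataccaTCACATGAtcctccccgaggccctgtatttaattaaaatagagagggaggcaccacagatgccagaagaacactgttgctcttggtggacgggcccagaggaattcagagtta
HNRNPA2B1: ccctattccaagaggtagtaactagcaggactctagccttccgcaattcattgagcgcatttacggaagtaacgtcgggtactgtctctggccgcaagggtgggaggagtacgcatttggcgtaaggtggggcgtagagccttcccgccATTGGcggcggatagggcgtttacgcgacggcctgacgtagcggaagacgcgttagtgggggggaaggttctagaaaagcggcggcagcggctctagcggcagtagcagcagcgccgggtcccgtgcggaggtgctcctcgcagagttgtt
CBX3: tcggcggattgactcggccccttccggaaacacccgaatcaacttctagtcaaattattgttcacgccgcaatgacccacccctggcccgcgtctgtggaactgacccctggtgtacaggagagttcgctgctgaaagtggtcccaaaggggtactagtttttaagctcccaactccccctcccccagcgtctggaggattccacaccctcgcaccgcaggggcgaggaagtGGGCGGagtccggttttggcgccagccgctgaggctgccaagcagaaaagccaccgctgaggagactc

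The IL6 window held a kappa B match at base 178 and CCAAT at bases 118 and 217, counted from 1 at the 5′ end of the window. GPNMB had a single M-box match at base 188, and TSPAN13 had GC boxes at bases 16 and 126 (opposite strand) and 229 and CCAAT at base 197. In the HNRNPA2B1 window CCAAT lay on the opposite strand at base 150, and the CBX3 window held a GC box at base 233. A RefSeq window was listed for 144 of the 187 members, out of 27305 genes with one, and the first window listed was used for each gene. COBL, CCT6A and PSPH had none. GC boxes were found in 69.4% of the members' windows against 44.6% over all 27305 genes, and TATA boxes in 4.86% against 11.95%. Those 27305 genes were not filtered by expression, as the members were. A trait of expressed genes and one of the arm therefore cannot be told apart here. CCAAT was found in 36.1% against 35.7% and the M-box in 2.78% against 1.01%. The kappa B consensus, settled on after narrower forms of the site had been searched, was found in 6.94% against 5.72%, with 6 of the 35 windows of higher members, 2 of the 94 of lower members and 2 of the other 15. The 6 were those of IL6, AHR, BMPER, MAD1L1, RNF216 and TMEM106B, and the split was not tested. GC boxes were about as common in windows of members that were lower in the resistant cells, at 70.2%, as in those of members that were higher, at 68.6%. A match says only that these letters are in the window.

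Most expressed genes of the arm were lower in the resistant cells. At an adjusted p under 0.05 in limma, with adjustment over all 12107 genes tested, 119 of 187 members were lower, which is 63.6%, against 38.1% of all genes tested. A further 43 were higher, which is 23.0%, against 39.9% of all genes tested, and 25 did not pass. In either direction that makes 162 members, or 86.6%, against 78.0% of all genes tested. Every difference here is the resistant mean less the parental mean of log2(FPKM + 1). Its median over the members was -0.40, and over all tested genes 0.01. The middle range of the members ran from -0.75 at the 25th percentile to 0.11 at the 75th, and single genes spanned -3.51 to 3.36. In these bulk libraries, fewer cells expressing a gene and less of its RNA per cell cannot be told apart.

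The lower level was seen in each resistant library. Measured as a gene's deviation from its mean in the parental cells, the members' median was -0.44, -0.37 and -0.39 in resistant libraries 1, 2 and 3, and 0.02, 0.02 and -0.03 in the parental libraries. All tested genes gave medians of -0.02, 0.03 and 0.03 in the same resistant libraries. As a share of all transcripts in the deposited TPM values, the members together made up 2.88%, 2.87% and 2.73% in the parental and 2.10%, 2.19% and 2.09% in the resistant libraries. Every resistant library lay below every parental one. ACTB and PPIA are by far the most abundant members, and without both the shares were 1.86% ± 0.0372 and 1.38% ± 0.0201 (SD, n = 3 each).

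Large changes were a smaller part of the pattern. A decrease of at least 1 on the log2 scale past the same threshold was found for 29 members, or 15.5%, against 9.39% of all genes tested. An increase of that size was found for 10 members, or 5.35%, against 9.95% of all genes tested. In 121 members every resistant library lay below every parental library, where 39.0% of all genes tested did so, and in 44 every resistant library lay above, where 40.8% of all genes tested did so. Both groups reached 1 FPKM in 170 members, of which 108 were lower and 37 higher, or 63.5% and 21.8%, against 37.2% and 38.7% of all such genes tested. The remaining members reached 1 FPKM on one side, 11 in the parental and 6 in the resistant cells.

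The share of lower genes moved with expression level. When all tested genes were divided at mean levels of 6.34 and 18.3 FPKM, the members were lower in 23 of 46 genes of the lowest class, 29 of 50 of the middle class and 67 of 91 of the highest class. These are 50%, 58% and 73.6%, and the same classes of all tested genes held 34.4%, 36.7% and 43.2% of lower genes. Members' medians in these classes were -0.24, -0.39 and -0.44. Genes read from the plus strand and from the minus strand had close medians, -0.39 over 94 members and -0.41 over 93. The 66 members whose gene model overlaps another gene expressed at 1 FPKM or more had a median of -0.41. The other 121 had -0.40. Overlapping genes may share reads on the same strand or, as strand use is not given, on opposite strands.

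The long arm of the same chromosome was lower by more. Of 379 tested long-arm genes, 277 were lower and 54 higher, with a median of -0.66, so the short arm lay between the long arm and the rest of the genome. The whole chromosome had the lowest median, -0.55, among the 23 chromosomes with at least 50 tested genes, followed by chromosome 13 with -0.42. These values describe the arms, and no test of the difference between them was run. Across the coordinate limit, the last member was CHCHD2 (7:56169262-56174269) with -0.53, and the first tested gene beyond it was ZNF727 (7:63505821-63538927), a zinc finger gene, with means of 2.37 and 1.48 FPKM and a difference of -0.44.

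**Figure D1:**
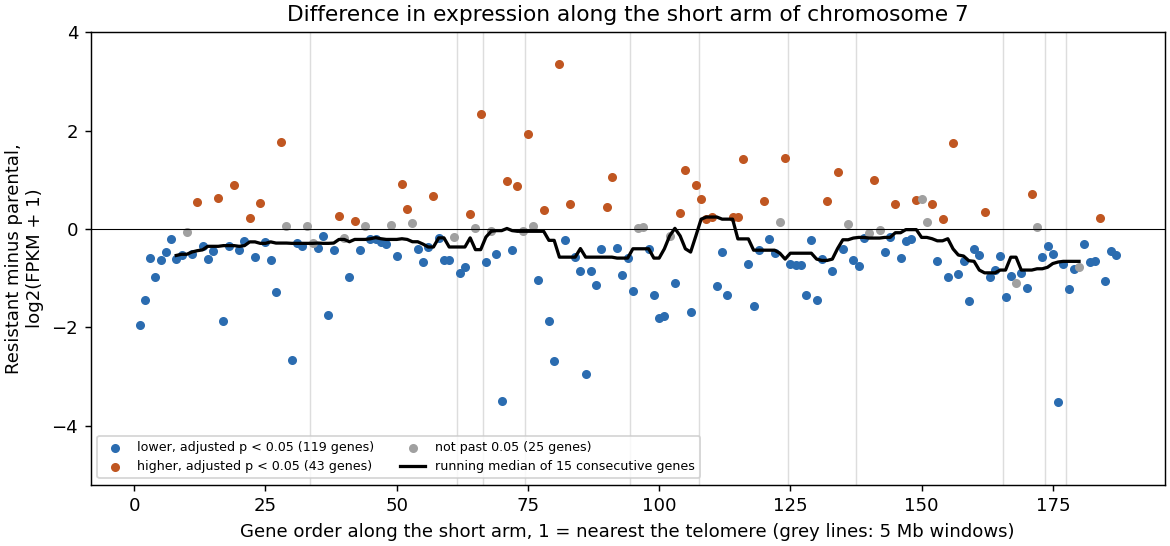
Each point is a member in order of position from the telomere (left) to the centromere (right), plotted as its difference, resistant less parental, in log2(FPKM + 1) and coloured by the limma call; the line is the running median over 15 neighbouring members. The line lies below 0 at 164 of 173 positions, and points lie on both sides of 0 except in stretches such as the 4 members between 50 and 55 Mb, all below 0.

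Along the arm the decrease was broad but uneven. A running median over 15 consecutive members was below 0 at 164 of 173 positions and below -0.5 at 47. Its lowest value, -0.89, was first reached over the stretch from POLD2 to TNS3 (7:44154286-47622156), in which 12 members were lower and 2 higher. POLD2 is a subunit of DNA polymerase delta, and TNS3 is a tensin, a link between integrins and actin. The highest running median, 0.24, was first reached over the stretch from HIBADH to AQP1 (7:27565061-30965131), with 5 members lower and 9 higher. The next positions toward the centromere gave the same value in both cases, so the borders of these stretches are not unique. The plot of members in order of position shows both stretches and the scatter of single genes around the line.

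Windows of 5 Mb, assigned by a gene's midpoint, gave 11 windows with at least 5 members, and 9 of their medians were below 0, against 246 of 525 such windows, or 46.9%, over all tested genes. The telomeric window from 0 to 5 Mb held 33 members with a median of -0.43, of which 24 were lower and 6 higher. FAM20C at -1.95 and TTYH3 at 1.77 both belong to it, so large changes in both directions lay within the same window. The window from 5 to 10 Mb had a median of -0.24 over 28 members, with 17 lower and 5 higher. The gene-poor windows from 10 to 15 Mb and from 15 to 20 Mb had medians of 0.01 over 5 members and -0.23 over 8. Counting only genes that reached 1 FPKM in each group, these medians were -0.38 and -0.05. The first also changed sign to -0.02 with median-of-ratios scaling, and also without parental replicate 1, at -0.02, and without resistant replicate 2, at -0.05.

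In the middle of the arm, the window from 20 to 25 Mb had a median of -0.49 over 20 members, with 13 lower and 6 higher, and it holds both GPNMB and IL6. The window from 25 to 30 Mb, around the HOXA cluster, had -0.40 over 13 members. The window from 30 to 35 Mb had a median of 0.14 over 17 members, 8 lower and 8 higher, and its 3 resistant libraries gave 0.03, 0.18 and 0.21. That median rested partly on genes almost silent in the parental cells: over the 15 members of the window at 1 FPKM or more in both groups it was -0.20. Without parental replicate 2 the median over all 17 was 0.06. The next window, from 35 to 40 Mb, had -0.64 over 13 members, 10 of them lower, with -0.68, -0.67 and -0.66 in the resistant libraries.

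The window from 40 to 45 Mb had a median of -0.22 over 28 members, with 17 lower and 7 higher (-0.14 without resistant replicate 1). The lowest window median, -0.92, was that from 45 to 50 Mb over 8 members, with 5 lower and 1 higher. Only 4 members lay between 50 and 55 Mb, and all 4 were lower. The last window, up to 58 Mb, had -0.67 over 10 members, of which 8 were lower and 1, PSPH, was higher. Taken from 45 Mb on, 17 of 22 members were lower and 2 higher, with a median of -0.69, against 102 lower and 41 higher of the 165 nearer the telomere, with -0.35. This border was chosen after the values were seen, and the difference between the sides was not tested. Direction was not uniform even between direct neighbours: of 186 adjacent pairs of members, 83 were called in the same direction and 56 in opposite directions, or 44.6% and 30.1%, against 40.7% and 20.9% of adjacent tested genes on all chromosomes.

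**Figure D2:**
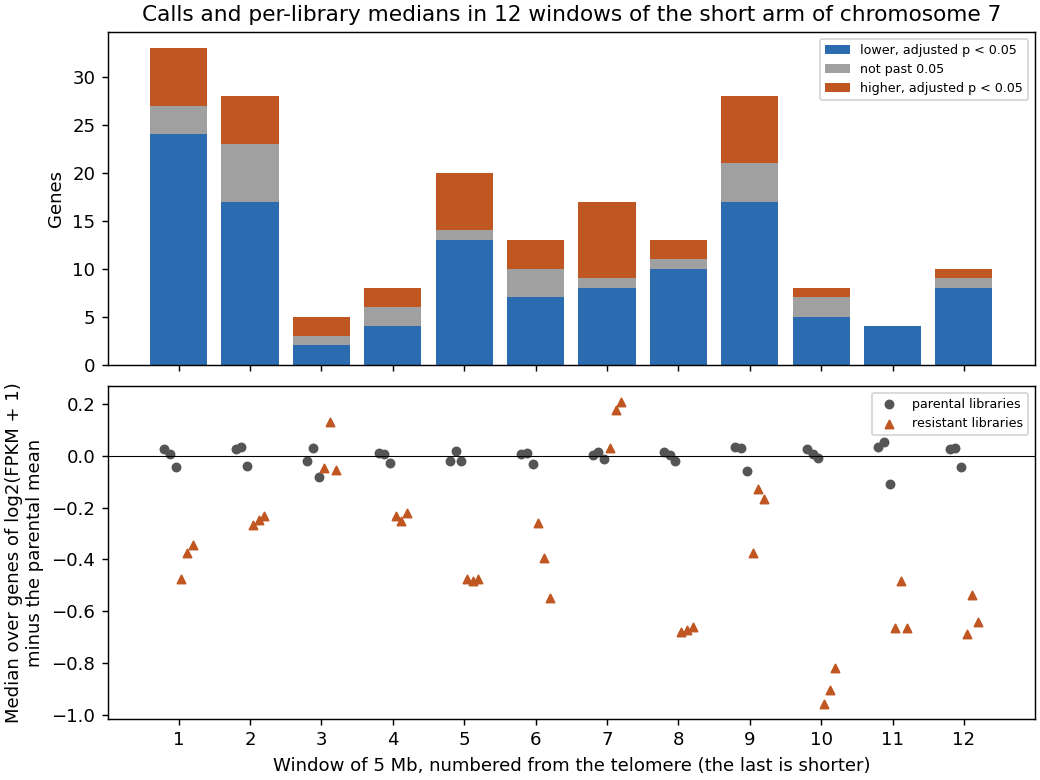
Windows of 5 Mb are numbered from the telomere; stacked bars above give the number of members lower, not past an adjusted p of 0.05 and higher, and points below give the median over members of log2(FPKM + 1) minus the parental mean in each library. Window 7 (30 to 35 Mb) sits above 0 in its 3 resistant libraries, and window 10 (45 to 50 Mb) is lowest, with -0.96, -0.90 and -0.82.

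The largest decrease on the arm was that of COBL (7:51083909-51384515), an actin nucleator. Its parental libraries measured 10.7, 11.1 and 10.3 FPKM and its resistant libraries 0.0323, 0.0166 and 0.0246 FPKM, a change of -3.51 ± 0.0679 (SE, limma adjusted p = 3.6e-13). The resistant libraries were thus all close to 0 and the parental ones close to one another. TSPAN13 (7:16793160-16824161), a tetraspanin of the cell membrane, measured 39.1, 38.7 and 38.0 FPKM against 2.26, 2.65 and 2.58, a 15.5-fold lower mean and a change of -3.50 ± 0.0638 (SE, limma adjusted p = 2.2e-13). GPNMB (7:23275586-23314727), a transmembrane glycoprotein of melanosomes and lysosomes, measured 25.3, 22.9 and 21.7 FPKM against 2.51, 1.92 and 2.08, a 10.7-fold lower mean with a limma adjusted p of 8.5e-12. For both genes the lowest parental library was several-fold above the highest resistant one.

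STEAP1B (7:22459063-22672544), a relative of the STEAP metalloreductases, measured 8.60, 9.23 and 9.51 FPKM in the parental and 0.513, 0.707 and 0.532 FPKM in the resistant libraries. It fell below 1 FPKM in each resistant library, with a change of -2.68. FAM20C (7:192969-300711), the Golgi kinase that phosphorylates secreted proteins, measured 60.4, 57.5 and 74.0 FPKM against 14.7, 16.6 and 15.8. SNX10 (7:26331541-26413949), a sorting nexin of endosomes, went from 16.2, 14.9 and 14.9 FPKM to 3.49, 3.54 and 3.93. SKAP2 (7:26706681-27034858), an adaptor of Src family kinases, went from 43.6, 43.3 and 38.4 FPKM to 11.6, 10.5 and 12.2. The groups were far apart in these last 3 genes too, but the resistant cells kept clear expression of each.

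IL6 (7:22765503-22771621), the cytokine interleukin 6, had the largest increase. Its parental libraries measured 3.33, 3.96 and 4.51 FPKM and its resistant libraries 46.5, 62.6 and 41.2 FPKM. The mean was 12.7-fold higher, with a change of 3.36 ± 0.166 (SE, limma adjusted p = 1.7e-06), and the SD among the resistant libraries was 11.2 FPKM. ETV1 (7:13930853-14031050), an ETS family transcription factor, was below 1 FPKM in parental cells, at 0.890, 0.827 and 0.662, and measured 7.96, 8.50 and 7.58 FPKM in resistant cells. Its change was 2.33 ± 0.0767 (SE, limma adjusted p = 4.0e-11). TTYH3 (7:2671585-2704436), a membrane protein of the tweety family, measured 16.5, 15.5 and 15.7 FPKM against 53.7, 58.1 and 57.8. All resistant libraries were above all parental libraries for each of these 3 genes, which was a condition for counting them among the largest increases.

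The further increases described here, of genes with a mean of 5 FPKM or more in the resistant cells, lay between 1.97-fold and 2.87-fold. Some genes at lower levels, such as ITGB8, rose by larger ratios. CREB5 (7:28338940-28865511), a leucine zipper transcription factor, measured 2.20, 1.96 and 2.41 FPKM against 6.36, 5.91 and 6.56. GLI3 (7:42000548-42277469), a transcription factor of the Hedgehog pathway, measured 2.07, 2.36 and 2.63 FPKM against 5.60, 5.75 and 5.62. AHR (7:17338246-17385776), the aryl hydrocarbon receptor, a transcription factor switched on by small molecules, measured 13.0, 13.5 and 12.5 FPKM against 25.5, 25.6 and 28.7. The groups did not overlap for any of them, which the rule for the largest increases required. DAGLB (7:6448757-6523821), a diacylglycerol lipase, measured 11.5, 10.5 and 10.2 FPKM against 19.1, 20.9 and 23.6. Its model overlaps that of KDELR2 on the same strand, so some reads could belong to either gene, with or without strand information.

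**Figure D3:**
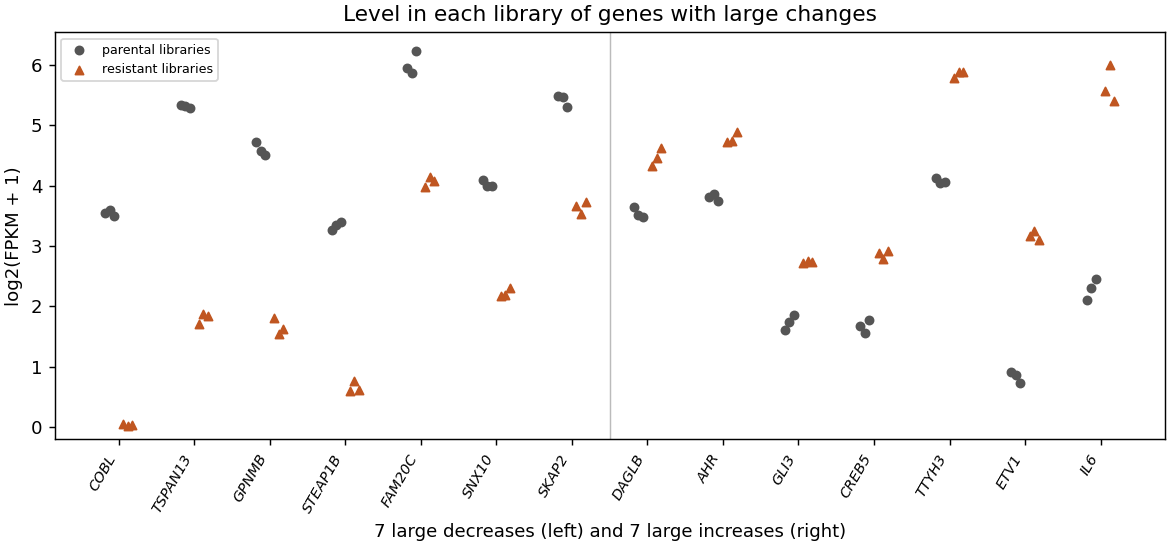
Level in each library, as log2(FPKM + 1), of 7 genes with large decreases and 7 with large increases among members that reached 5 FPKM in the higher group; circles are the 3 parental and triangles the 3 resistant libraries. An adjusted p under 0.05 and no overlap between the groups were conditions for being shown. The genes run from COBL, with resistant libraries near 0, to IL6, with a 12.7-fold higher mean.

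The members were also grouped into 9 lists by role, which together hold 132 of them, and in 7 lists the lower genes outnumbered the higher ones. The lists were drawn up with earlier results of these libraries known, so their counts describe these genes and are no test of a role. Each list's shares are to be read against 63.6% lower and 23.0% higher over the arm, and 38.1% lower and 39.9% higher over all genes tested. Members on a list had a median of -0.39 and the 55 on none had -0.43.

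Genes of mitochondria, the organelle of respiration, were lower in 12 of 14 members (85.7%, against 63.6% over the arm), with 1 higher, 1 not past the threshold and a median of -0.53. CYCS (7:25159710-25164980), cytochrome c, measured 101, 104 and 99.3 FPKM in the parental and 41.8, 43.3 and 40.0 FPKM in the resistant libraries, with a change of -1.27 ± 0.0596 (SE, limma adjusted p = 1.0e-09). TBRG4 (7:45139699-45151646), a mitochondrial RNA-binding protein, measured 84.6, 81.9 and 74.7 FPKM against 38.5, 43.5 and 40.7. NDUFA4 (7:10971578-10979883), a subunit of cytochrome c oxidase, measured 89.4, 85.8 and 79.7 FPKM against 43.6, 47.9 and 43.4. Their means were 1.89-fold to 2.44-fold lower in the resistant cells, and no parental library overlapped a resistant one. CHCHD2 at the centromeric end, a mitochondrial protein that also acts in the nucleus, was among the most abundant members with 577 ± 40.0 FPKM against 401 ± 29.7 (SD, n = 3 each). The single higher member was MRPS24 (7:43906157-43909492), a protein of the small mitochondrial ribosome subunit, with 182 ± 7.37 against 275 ± 23.1 FPKM (SD, n = 3 each), and its model overlaps a read-through gene with URGCP. HIBADH, an enzyme of valine breakdown, had a difference of -0.14 that did not pass (limma adjusted p = 0.059), but passed with median-of-ratios scaling (0.013) and without parental replicate 3 (0.033) or resistant replicate 3 (0.048). The call of MRPL32, another mitochondrial ribosomal protein with -0.17, was lost without parental replicate 1 (0.066), parental replicate 2 (0.065) or resistant replicate 1 (0.097).

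DNA replication, repair and cell division was represented by 12 members, of which 8 were lower (66.7%) and 3 higher (25%), close to the shares over the arm, with a median of -0.48. ANLN (7:36429415-36493400), anillin, a scaffold of the cleavage furrow in dividing cells, measured 193, 202 and 179 FPKM against 72.2, 71.5 and 64.3, a change of -1.45 ± 0.0701 (SE, limma adjusted p = 1.3e-09). HUS1 (7:47735328-48019178), a subunit of a checkpoint clamp for damaged DNA, measured 15.1, 16.1 and 16.3 FPKM against 6.32, 6.17 and 6.38. POLD2 fell from 172 ± 11.5 to 87.0 ± 9.12 FPKM (SD, n = 3 each). Libraries of each group lay close together in these genes and the groups did not overlap. RPA3, a subunit of the single-strand DNA binding complex, changed by -0.63. In the other direction, MAD1L1 (7:1855429-2272878), a protein of the spindle checkpoint, measured 16.8, 17.1 and 17.0 FPKM against 29.7, 35.8 and 32.5. PMS2, a mismatch repair gene with many near-identical copies on this chromosome, had a difference of 0.06 that did not pass, and its level is uncertain because the handling of shared reads is not given.

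Of 20 members in translation, folding and protein turnover, 13 were lower (65%) and 7 higher (35%), with a median of -0.24. DDX56 (7:44605016-44614650), a helicase of ribosome assembly, measured 102, 113 and 102 FPKM against 34.8, 41.9 and 36.8, a change of -1.45 ± 0.0767 (SE, limma adjusted p = 2.9e-09). CCT6A (7:56119323-56131682), a subunit of the chaperonin that folds actin and tubulin, measured 243, 250 and 243 FPKM against 114, 129 and 110. PPIA, cyclophilin A and an abundant peptidyl-prolyl isomerase, had a mean of 1482 ± 54.8 FPKM in the parental and 752 ± 25.9 FPKM in the resistant cells (SD, n = 3 each). The means of these 3 genes were 1.97-fold to 2.78-fold lower in the resistant cells. The higher members were smaller in their change, and several belong to the secretory pathway: KDELR2, the receptor that returns proteins to the endoplasmic reticulum, changed by 0.41, FKBP9 by 0.57 and FKBP14 by 0.60, the last 2 being prolyl isomerases of that organelle. GARS, glycyl-tRNA synthetase, changed by 0.24, while SEC61G, a subunit of the translocation channel, changed by -0.70.

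Genes of RNA processing and chromatin were lower in 11 of 15 members (73.3%) and higher in 3 (20%), with a median of -0.44. CBX3 (7:26240782-26252976), the heterochromatin protein HP1 gamma, measured 271, 269 and 248 FPKM against 105, 101 and 101, a change of -1.35 ± 0.0626 (SE, limma adjusted p = 8.9e-10). IGF2BP3, an mRNA-binding protein of embryonic and tumour cells, fell from 33.4 ± 0.421 to 14.6 ± 0.584 FPKM (SD, n = 3 each). Histone variant gene H2AFV changed by -0.84 and the splicing factor LSM5 by -0.72. HDAC9, a histone deacetylase, was the largest of the increases at 0.88, followed by ZMIZ2 at 0.35 and JAZF1 at 0.33.

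The cytoskeleton and small GTPase list had 17 expressed members, with 12 lower (70.6%), 2 higher (11.8%) and the lowest list median, -0.61. RAC1 (7:6414154-6443608), a small GTPase of membrane ruffles, changed by -0.55, and FSCN1 (7:5632439-5646286), fascin, which bundles actin filaments, by -0.98. CCM2, a scaffold protein of cell junctions, changed by -1.39. RAPGEF5, an exchange factor for Rap GTPases, measured 2.73, 2.81 and 2.43 FPKM in parental cells and 0, 0.00311 and 0 in resistant cells. It was thus listed at 0 in 2 of the 3 resistant libraries. ACTB (7:5566782-5603415) was the most abundant member with 2781 ± 188 and 2462 ± 209 FPKM (SD, n = 3 each). Its groups overlapped and its difference of -0.18 did not pass (limma adjusted p = 0.069), but it passed with median-of-ratios scaling at -0.20 (0.028) and without parental replicate 3 (0.035) or resistant replicate 2 (0.017). The 2 higher members were AMPH and TTYH3, the latter a membrane protein described above, at 1.77. AMPH, a protein of endocytosis, rose from near 0 to between 1.10 and 1.38 FPKM.

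In membrane traffic, 14 of 19 expressed members were lower (73.7%) and 4 higher (21.1%), with a median of -0.40. TSPAN13 and SNX10 led this list, followed by AVL9 (7:32535038-33078516), a protein of late secretion, which fell from 25.1 to 7.80 FPKM and by 1.56 on the log2 scale. YKT6, a SNARE of vesicle fusion, changed by -0.92. DAGLB had the largest increase of the list. CCZ1 and CCZ1B, near-identical copies at separate places on the arm that encode a partner of the Rab GTPase exchange complex of late endosomes, changed by -0.43 and -0.37, and their levels are uncertain for the same reason as that of PMS2.

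Metabolic enzymes were lower in 7 (63.6%) and higher in 3 (27.3%) of 11 expressed members, with a median of -0.20. GGCT (7:30536237-30591095), an enzyme of glutathione breakdown, measured 100, 101 and 99.1 FPKM against 39.6, 37.4 and 39.0, a change of -1.35 with a limma adjusted p of 3.9e-10. UPP1, uridine phosphorylase, changed by -0.57. In the other direction SCRN1, a secernin, changed by 0.89.

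In the remaining lists, secreted and surface signalling and transcription factors, higher members outnumbered lower ones by 2 and by 1. Of 13 expressed signalling members, 7 were higher (53.8%) and 5 lower (38.5%), with a median of 0.54. Of these, 10 reached 1 FPKM in each group, and among them 4 were higher and 5 lower and the median was -0.38. IL6 had the largest increase, and GPNMB and FAM20C had the largest decreases. The higher members also include CHST12 at 0.54 and C1GALT1 at 0.66, and the lower ones LFNG at -0.26. Like FAM20C, these are enzymes of the Golgi. ITGB8 (7:20370325-20455377), the integrin subunit that activates latent TGF-beta, measured 0.104, 0.174 and 0.198 FPKM in the parental and 3.47, 3.35 and 3.49 FPKM in the resistant libraries. BMPER, a secreted regulator of BMP signalling, was at most 0.00710 FPKM in the parental libraries and measured 1.55, 2.03 and 1.62 FPKM in resistant cells. AQP1, a water channel, measured 0.531, 0.367 and 0.598 FPKM against 2.85, 3.07 and 3.12. These genes were below 1 FPKM in each parental library and above it in each resistant one. PDGFA, a growth factor ligand, changed by -0.59. IGFBP3 (7:45951949-45961473), a carrier of insulin-like growth factors, measured 17.98, 14.2 and 46.6 FPKM against 7.80, 10.4 and 13.0. Its groups did not overlap, but parental replicate 3 was far above the other parental libraries and the difference of -1.10 ± 0.527 (SE) did not pass (limma adjusted p = 0.12).

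Among 11 expressed transcription factors, 5 were higher (45.5%) and 4 lower (36.4%), with a median of 0.06, and both shares are near the 39.9% and 38.1% of all genes tested. ETV1, CREB5, GLI3 and AHR, already described, had the largest increases, and MAFK, a small Maf protein that pairs with other leucine zipper factors, changed by 0.62. The lower members were ZNF12 at -0.66, RBAK at -0.39, ZNF713 at -0.31 and FOXK1 at -0.29, the first 3 being zinc finger proteins and the last a forkhead protein. NFE2L3 and SP4 had differences of 0.05 and 0.06 that did not pass.

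**Figure D4:**
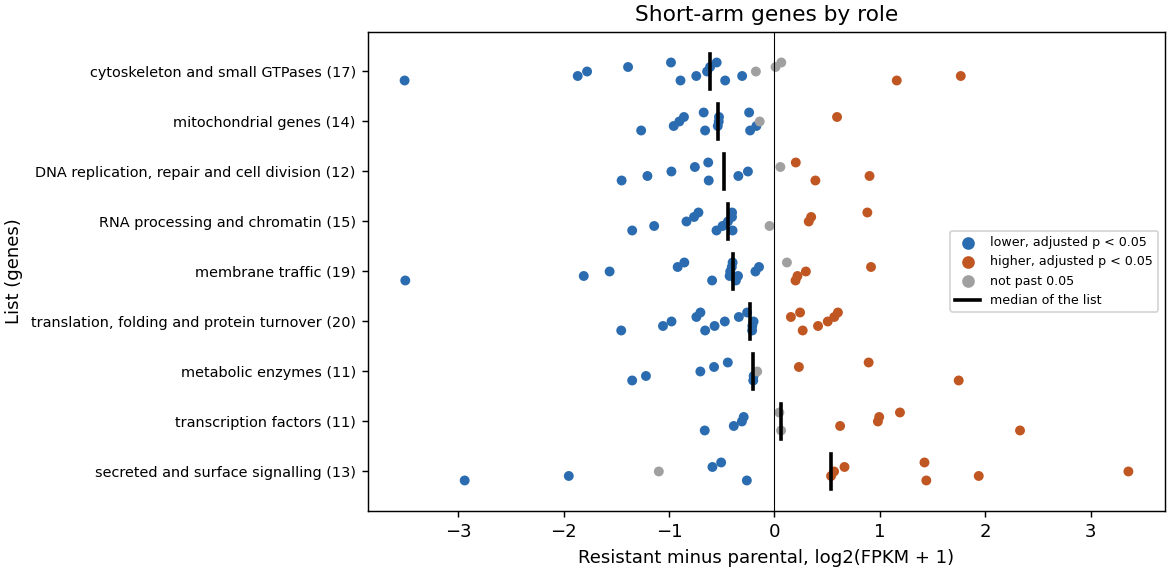
Difference of each listed member (resistant minus parental, log2(FPKM + 1)) by role, one point per gene coloured by the limma call, with a bar at the median of each list. Medians lie between -0.61 and -0.20 in 7 lists and at 0.06 and 0.54 for transcription factors and for secreted and surface signalling.

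The nearest members of EGFR and of the HOXA cluster, which were themselves left out, were mostly lower, as were 63.6% of all members. EGFR itself went from 31.7 to 16.9 FPKM, a difference of -0.87, and HOXA10, the only 1 of 11 HOXA genes of the table that was tested, from 3.19 to 2.06 FPKM, a difference of -0.45. The nearest members before EGFR were COBL and SEC61G and the nearest after it were LANCL2 (7:55433141-55501435), a glutathione-binding protein, at -1.22 and VOPP1 (7:55503749-55640681), a vesicular protein, at -0.81. All 4 were lower. Before the HOXA cluster lay SNX10 and SKAP2, and after it lay HIBADH and TAX1BP1 (7:27778950-27884183), an autophagy receptor. TAX1BP1 measured 101, 99.3 and 95.5 FPKM against 44.6, 45.3 and 46.5, a change of -1.10. On the HOXA side, too, each of these neighbours that passed was lower. HIBADH passed in some settings only, as given with the mitochondrial genes. The longer stretch that starts after the cluster, from HIBADH to AQP1, held 5 members lower and 9 higher. It was the first of the stretches that shared the highest running median of the arm, 0.24.

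There were 13 pairs of members read in opposite directions from starts within 1000 bases of each other. Both genes were lower in 6 of these pairs and both higher in 1, 2 pairs were called in opposite directions, and in 4 at least 1 gene did not pass. Called in 1 direction were thus 53.8% and in opposite directions 15.4%, against 42.8% and 14.2% of the 998 such pairs among all tested genes. HNRNPA2B1 (7:26229547-26241149), an abundant RNA-binding protein, and CBX3, whose windows are printed above, are such a pair. The printed windows follow the starts listed in RefSeq and do not overlap, whereas the pairs were defined by the outer ends of the gene models. HNRNPA2B1 measured 462, 483 and 441 FPKM in the parental and 385, 350 and 315 FPKM in the resistant libraries, a change of -0.40 against -1.35 for CBX3. Both were lower in each resistant library, by different amounts. ANLN and its partner KIAA0895 likewise changed by -1.45 and -0.22, and AVL9 and LSM5 by -1.56 and -0.72. The models of HNRNPA2B1 and CBX3 overlap by 368 bases and those of ANLN and KIAA0895 by 320. Some reads could therefore belong to either gene of these pairs. The model of AVL9 overlaps those of other expressed genes, FKBP9 among them.

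The pairs with opposite calls were PSPH with CCT6A and SNX8 with EIF3B. PSPH (7:56078744-56119297), the last enzyme of serine synthesis, measured 26.3, 28.4 and 27.3 FPKM against 31.2, 32.3 and 33.2, a change of 0.23 ± 0.0598 (SE, limma adjusted p = 0.0034), while CCT6A, whose start lies 26 bases away, changed by -1.06. SNX8, a sorting nexin, changed by 0.22 and EIF3B (7:2393721-2420380), a scaffold of translation initiation, by -0.57. Their models overlap by 233 bases, so some reads could belong to either gene. Whether PSPH shared reads with PSPHP1, its pseudogene on the same arm, was not tested. Differences within a pair were not tested. Both opposite pairs had the same calls under each alternative and with each library left out, but the count of pairs called in 1 direction fell from 7 to 4 without parental replicate 1 and to 6 without any other single library. It was also 6 without a filter on low values, with median-of-ratios scaling and in limma without trend and robust moderation, and 8 in TPM. The calls concerned were those of NUDT1, a nucleotide-cleaning hydrolase, at -0.25 (limma adjusted p = 0.061 without parental replicate 1), PLEKHA8, a glycolipid transfer protein, at 0.20 (0.10 to 0.18 without parental replicate 1 or 3 or resistant replicate 2 or 3, 0.097 without a filter, 0.05002 with median-of-ratios scaling and 0.0515 without trend and robust moderation), and MRPL32, given with the mitochondrial genes.

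In the other 4 pairs, BZW2, a translation regulator, changed by -0.50 beside ANKMY2 at -0.03, and UBE2D4, a ubiquitin-conjugating enzyme, by 0.51 beside URGCP at 0.13. URGCP passed only in TPM (0.17, limma adjusted p = 0.013). AIMP2, a scaffold of tRNA synthetases, changed by -0.21 beside PMS2, and MPLKIP by -0.18 beside SUGCT at -0.08. The call of AIMP2 was lost without parental replicate 2 (0.072), resistant replicate 1 (0.060) or resistant replicate 3 (0.081). That of MPLKIP was lost without parental replicate 1 (0.13), parental replicate 2 (0.077) or resistant replicate 1 (0.12).

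**Figure D5:**
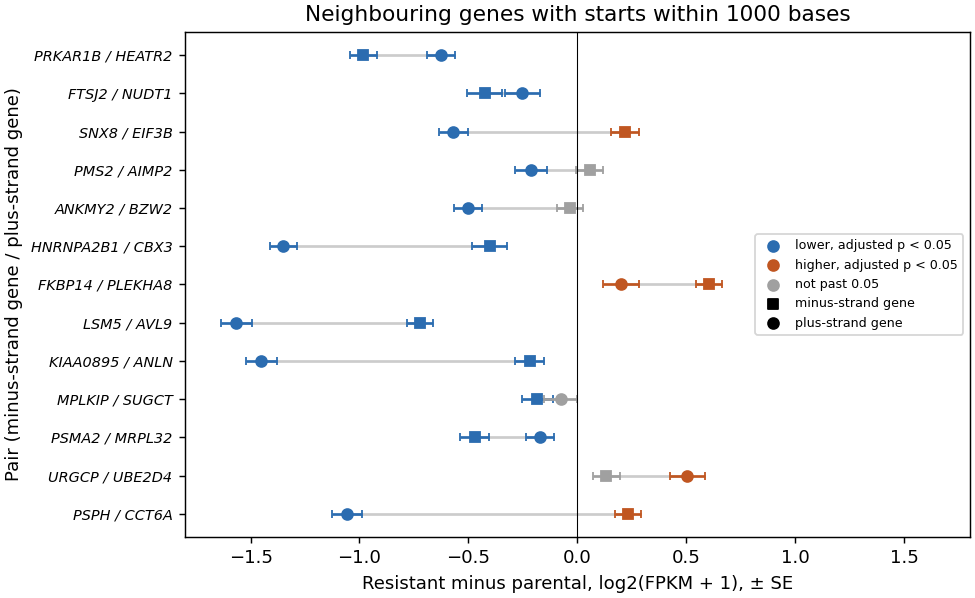
The 13 pairs of neighbouring members on opposite strands with starts within 1000 bases, each gene plotted as its difference, resistant less parental, in log2(FPKM + 1) with its standard error; squares are genes of the minus strand and circles genes of the plus strand. Only SNX8 with EIF3B and PSPH with CCT6A have called genes on both sides of 0.

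At the 1 FPKM limit, the members with the lowest mean in their higher group were C7orf57, with 1.04 and 1.11 FPKM in the parental and resistant cells, and ISPD, with 1.12 and 0.332. Just outside it were ANKRD61, with 0.998 and 0.550 FPKM, and AC073343.1, with 0.842 and 0.652.

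Libraries of a group were alike, with Spearman correlations across genes of 0.9947 to 0.9962 within and 0.8456 to 0.8538 between groups, and genes are not independent replicates. Sequenced depth, estimated from the deposited coverage, was 9.72 to 14.7 Gb per library. Markers of cell identity differed between the groups over the whole genome. The summed FPKM of 5 epithelial markers was 1671 to 1870 in the parental and 636 to 699 in the resistant libraries, and that of 4 lung epithelial markers, of which 1 passed the level filter, 24.9 to 29.5 against 0.172 to 0.199. Leukocyte markers, 2 of 5 tested, summed to 24.1 to 27.6 against 70.3 to 80.2 with CD3E at 0 in every library, and fibroblast markers, 2 of 5 tested, to 2.24 to 2.66 against 17.5 to 21.3 with DCN at 0. Endothelial markers, 2 of 4 tested, summed to 1.70 to 2.37 against 1.03 to 1.30. Their part in the results on the arm was not tested.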

How the data were processed

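RNA was sequenced from 3 parental and 3 resistant libraries. The authors deposited a table of FPKM for all libraries and 1 file per library with FPKM, TPM and coverage, on GRCh37 per the submitters' processing notes. Coverage, the signal column per the file headers, was used only to estimate depth from its ratio to FPKM (9.72 to 14.7 Gb per library). The aligner, the annotation release, the use of strand and the handling of reads shared by similar genes are not stated in the sources at hand. No column held counts, so no count test was run. Promoter windows came from RefSeq (GRCh38.p14), matched by symbol.

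Genes with a mean of 1 FPKM or more in either group were tested as log2(FPKM + 1) with limma 3.58.1 in R 4.3.3 (group as the only term, intensity trend, robust moderation, two-sided), with Benjamini-Hochberg adjustment over all 12107 genes and a threshold of 0.05. A pseudocount of 1 understates the change of low genes. The fit was tested on simulated data. SEPTIN7, stored as a date, was restored from its identifier, and 2 identifiers carry the symbol MRPS17.

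The members, the lists by role, the windows and the alternatives were chosen with earlier results of these data known. Genes named by rule were the 8 largest increases and the 8 largest decreases with 5 FPKM or more in the higher group and no overlap, the most abundant member of each window, the 2 lowest adjusted p-values per list, the neighbours of EGFR and HOXA, the divergent pairs, and the genes at the level and coordinate limits, 63 in all, of which 2 are not reported here. Other genes named were chosen after their values were seen. The alternatives were another pseudocount, 2 other filters, TPM, median-of-ratios scaling, limma without trend and robust moderation, the replicate number as a block, and each library left out.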

Additional observations from a re-analysis of the deposited data

Results flagged for a closer look

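The library files also hold genes of the arm that are not in the series table and enter none of the comparisons above. Among those with a mean of 5 FPKM or more in the resistant libraries and every resistant library above every parental one, the highest was EEF1A1P6, a pseudogene of the elongation factor gene EEF1A1, with 50.16 FPKM against 36.6 FPKM in the parental cells. The other values, in FPKM in the resistant against the parental cells, were 11.53 against 10.7 for AC005682.5, 7.101 against 2.64 for RPS2P32, 6.707 against 5.69 for AC092171.4, 6.474 against 3.12 for AC002480.3 and 5.454 against 4.91 for RP9P. EEF1A1P6, RPS2P32 and RP9P are copies of expressed genes, and whether reads of the parent genes were counted there was not tested. AC002480.3 is annotated as antisense and lies within STEAP1B, which itself fell below 1 FPKM in the resistant libraries.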

How the results depend on the processing

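Across 13 alternatives, the number of lower members (119) lay between 108 and 132 and that of higher members (43) between 37 and 53. The median of -0.40 moved to -0.16 without a filter on low values, where 258 genes of the arm entered, and lay between -0.43 and -0.38 in every other alternative. With 1 library left out in turn, 111 to 121 members were lower and 40 to 43 higher, the median ran from -0.42 to -0.38, and 9 to 10 window medians were below 0. Scaling moved the median of all tested genes by at most 0.04. With the replicate number as a block, 117 members were lower and 43 higher, the median was -0.40 and 9 windows were below 0. Deviations of same-numbered libraries were weakly correlated (-0.136, 0.0761 and 0.0990), and not every library correlated best with its own number. With 3 libraries per group, such correlations cannot decide whether the numbers pair the samples. For the named genes, 788 values kept direction and call, 17 lost the call, 7 gained it, and C7orf57, past the threshold in neither, at 0.05, ran from -0.0057 without resistant replicate 3 to 0.12 without resistant replicate 1. The cause of these changes was not tested. Without counts, the precision that depth gives to genes near 1 FPKM cannot be stated.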

Other observations

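The library files list 1011 identifiers on the arm, 708 of them not in the series table, and 54 of these reached a mean of 1 FPKM in a group. By annotation 23 of the 54 are pseudogenes, 12 long intergenic noncoding RNAs and 9 antisense RNAs. In 24 of the 54 every resistant library was below every parental one, in 16 every resistant library was above, and in 14 the groups overlapped. Of all genes tested in the series table, 39.0% lay below and 40.8% above in this way. The numbers for the 54 are counts of values, with no test.

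SNHG15, a noncoding host gene of small nucleolar RNAs, measured 24.6 ± 1.21 FPKM in the parental and 17.0 ± 1.07 FPKM in the resistant cells (SD, n = 3 each). LINC00525, annotated as antisense, measured 1.71, 1.46 and 1.58 FPKM in parental cells and 0, 0.0138 and 0 in resistant cells. The intergenic RNA LINC00265 had means of 3.02 and 1.12 FPKM. PSPHP1, a pseudogene of PSPH, had means of 3.70 and 0.892 FPKM, lower in the resistant cells where PSPH itself was slightly higher. Whether reads of one were counted at the other was not tested. In the other direction, the antisense gene CTA-293F17.1 beside ITGB8 measured 0.129, 0.106 and 0.0944 FPKM in the parental and 1.29, 1.41 and 1.58 FPKM in the resistant libraries, and without known strand use its reads cannot be told apart from those of ITGB8. AC147651.4, also antisense, went from listed at 0 in 2 of 3 parental libraries to between 1.00 and 1.41 FPKM.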
